A study of Homo sapiens with 29 samples.

Results

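The comparison is between the V and the VM libraries of senescent lung fibroblasts in which SMARCA4 had been knocked down. A library's column name ends in a set name, a number followed by V or VM, and what these letters stand for is not stated in the sources used here. The 6 knockdown libraries were taken by their column names, out of 18 libraries with counts. The 3 V libraries (2-3V, 4-2V and 4-3V) were set against 3 VM libraries (2-1VM, 2-3VM and 4-2VM). The labels list 29 samples, and the titles without a matching column include knockdown samples of both letters. The first digit of a name is the number of the siRNA (2 or 4) and the second is the number of the set. Values below follow that order, V libraries first. SMARCA4 transcript values were higher in the V libraries than in the VM libraries, though the difference missed the threshold of the main test (given below). The question addressed is which genes differ between V and VM knockdown libraries. Set letter and residual SMARCA4 were not varied separately, and the part of residual SMARCA4 in these differences was not tested.

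SWI/SNF is a chromatin remodelling complex that uses ATP to slide or evict nucleosomes and so opens enhancers and promoters. SMARCA4, also called BRG1, is one of its alternative ATPases, SMARCA2 is the other, and ARID, SMARCB, SMARCC, SMARCD and BCL7 proteins are accessory subunits. Oncogenic RAS drives fibroblasts into senescence, a lasting arrest in which cells secrete interleukins, chemokines, proteases and growth factors, together called the senescence-associated secretory phenotype (SASP). Interleukin 1 acts early in this programme and NF-kappaB transcribes much of it. Natural killer (NK) cells recognise senescent cells through stress ligands and adhesion molecules on the cell surface.

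All libraries came from IMR90 ER:RAS, an established line of human fetal lung fibroblasts that carries RASG12V fused to the estrogen receptor (ER), introduced with a retroviral vector. 4-hydroxytamoxifen (4OHT) switches the fusion on, and DMSO is its solvent. The knockdown group, 4OHT_siSMARCA4, received siRNA against SMARCA4 by reverse transfection a day ahead of 4OHT, and RNA was collected on day 7. The 6 4OHT_siNT libraries had 4OHT and a non-targeting siRNA and all came from VM sets. Titles of 4OHT_siNT samples from V sets exist, but no column of counts matched them. The DMSO_siNT libraries (3 V and 3 VM) had DMSO and a non-targeting siRNA. Wherever a knockdown V level is set beside 4OHT_siNT, the siRNA target and the set letter therefore differ together and cannot be told apart. Nothing states that the libraries of a group came from separate cultures, so p-values measure the spread between these libraries, which may be technical. The column 2-1VM matched no sample title. In the titles, set 1 is written 1V for the knockdown and DMSO samples and 1VM for the 4OHT_siNT samples, and 2-1VM was kept with the VM libraries by its column name. The letters were also not balanced over siRNAs, because V held 1 library of siRNA 2 and 2 of siRNA 4, and VM held 2 of siRNA 2 and 1 of siRNA 4.

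Knockdown libraries held 11382143 to 18039313 counts, 4OHT_siNT libraries 13237672 to 15407710, and 1 DMSO_siNT library, 4-2V, stood apart with 9657309 counts. Levels are CPM, the counts of a gene scaled to a common library total, after TMM scaling over the 18 libraries. In such bulk RNA, fewer cells of a type and less RNA per cell cannot be told apart. Fibroblast markers were high in every knockdown library, with a summed level of 16420 to 16999 CPM over 10 genes in V and 12600 to 15202 in VM. Epithelial markers summed to 1.21 to 2.61 CPM in V and 1.30 to 2.47 in VM, with KRT5, SFTPC and SFTPB at 0 in all 6 libraries. Endothelial markers summed to 4.90 to 7.48 CPM in V against 1.81 to 3.51 in VM, and 4.52 to 6.60 in 4OHT_siNT, with CDH5 at 0 in 3 of the 6 knockdown libraries. Leukocyte and NK markers summed to 0.562 to 0.632 CPM in V and 0.163 to 0.319 in VM, with CD3E, NKG7 and GNLY at 0 in all 6. The transcripts that the transgene adds to, ESR1 and HRAS, summed to 5752 to 6793 CPM in V and 6140 to 7002 in VM. The part of these differences in the results below was not tested.

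SMARCA4 (chr19:10960932-11079426, plus strand, GRCh38) was read first, as the targeted gene. It stood at 125, 141 and 90.7 CPM in the V libraries and at 79.5, 87.1 and 70.3 CPM in the VM libraries, against 303 ± 21.2 CPM (SD, n = 6) in 4OHT_siNT. This left 41.3%, 46.6% and 29.96% of the mean 4OHT_siNT level in the V libraries and 26.3%, 28.8% and 23.2% in the VM libraries. The V and VM values did not overlap, but V library 4-3V lay just above the highest VM library. The log2 fold change of V over VM was 0.59 ± 0.15 (SE, edgeR adjusted p = 0.0648), so the difference in residual SMARCA4 was not called at an adjusted p under 0.05. Without 4-3V it was 0.75 (adjusted p = 0.014), and DESeq2 called it in the 6 libraries (0.59, adjusted p = 0.0161). Within siRNA 2 the difference was 0.59 and within siRNA 4 it was 0.68 on the log2 scale. None of the other 25 SWI/SNF subunit genes was called by edgeR, and DESeq2 called 1 of the 26 higher and 1 lower. The median over the 26 genes was -0.03, with 11 values above 0. An unadjusted p under 0.05 was reached by 5 of the 26, beside 2277 of 12563 over all genes tested. SMARCA2, the paralogous ATPase, stood at 18.6, 23.8 and 19.1 CPM in V and 22.8, 21 and 16.2 CPM in VM (log2 fold change 0.04 ± 0.16, edgeR adjusted p = 0.914).

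**Figure D1:**
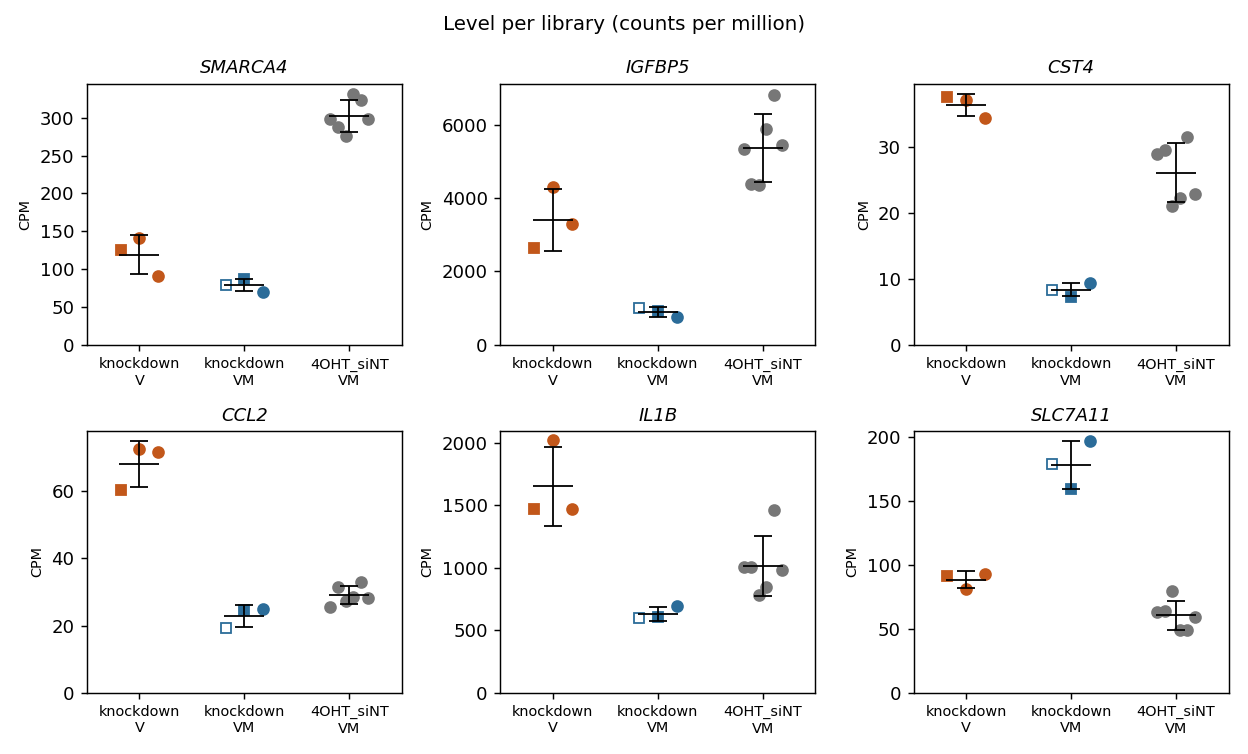
Level in CPM of SMARCA4, IGFBP5, CST4, CCL2, IL1B and SLC7A11 in each of the 3 knockdown V, 3 knockdown VM and 6 4OHT_siNT libraries. Points are libraries (squares siRNA 2 and circles siRNA 4 in the knockdown groups, the open square is the library 2-1VM, which matched no title), and horizontal bars with whiskers are the mean ± SD. V and VM points do not overlap in any of the 6 panels, and the V mean lies above the 4OHT_siNT mean for CST4, CCL2, IL1B and SLC7A11.

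Over all genes, edgeR's quasi-likelihood test called 356 of 12563 genes tested (2.83%) between V and VM, of which 242 were higher in V (1.93%) and 114 lower (0.907%). A further measure of the same contrast was that 2825 genes (22.5%) had V and VM values that did not overlap, and all 356 called genes were among them. Of the called genes, 122 rose and 41 fell in V by more than 2-fold. Among called genes the median log2 fold change was 1.00 for those higher and -0.86 for those lower, and over all genes tested it was 0.00. Within each siRNA the median difference was 0.74 (siRNA 2) and 1.07 (siRNA 4) for the genes higher in V and -0.64 and -0.94 for those lower in V, whose sign is fixed because the groups do not overlap. With the siRNA number as a covariate 290 genes were called, 256 of them among the 356.

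The number of calls rested on single libraries. DESeq2 called 651 genes in the 6 libraries. In edgeR the number was 22 without 2-1VM, 17 without 4-2V, 47 without 2-3VM, 150 without 4-2VM, 261 without 4-3V and 1710 without 2-3V. With 2-1VM placed with the V libraries, as a title with that siRNA and set number would have it, no gene was called by edgeR, with 765 at an unadjusted p under 0.05. With the siRNA covariate and without 2-1VM, a setting added after the data were seen, 191 genes were called. In a principal component analysis of the 6 libraries, the first component held 49.3% of the variance and placed the VM libraries at -22.0 to -17.1 and the V libraries 2-3V, 4-2V and 4-3V at -1.94, 24.2 and 35.2. The V libraries thus differed more among themselves than the VM libraries did along this component.

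**Figure D2:**
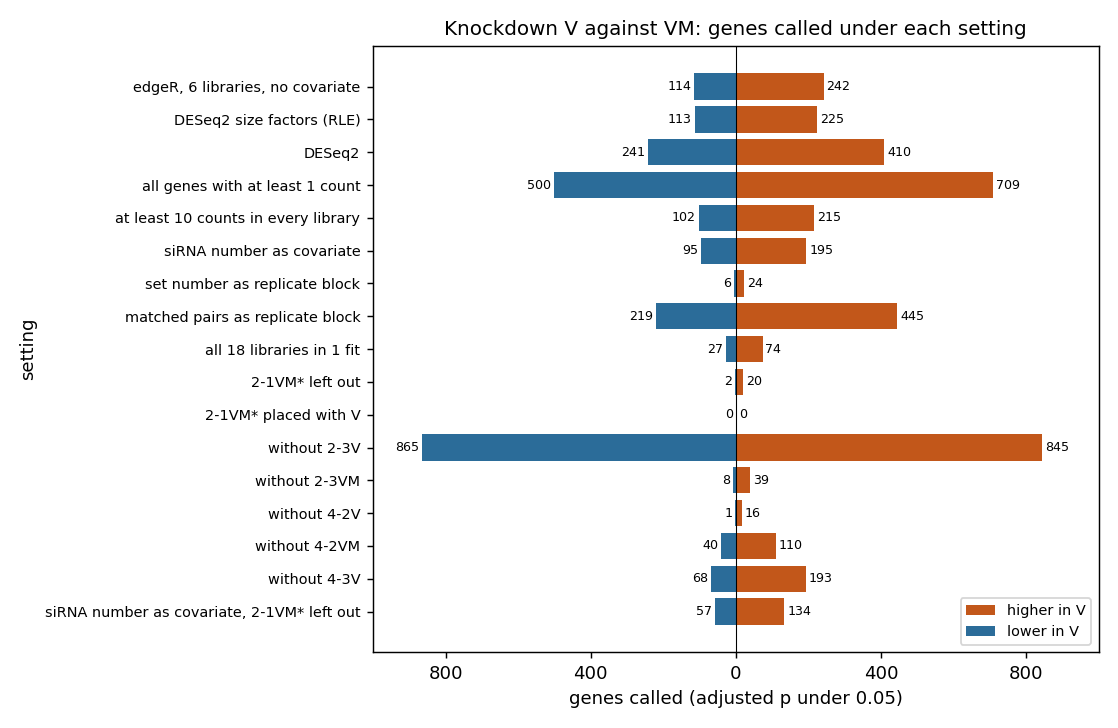
Number of genes called at an adjusted p under 0.05 in knockdown V against VM, under each setting (vertical axis), with genes higher in V drawn to the right and genes lower in V to the left of 0. The asterisk marks library 2-1VM, which matched no title. The counts run from 0, with that library placed with V, to 845 higher and 865 lower without 2-3V.

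The genes with the largest rises in V held secreted factors, receptors and signalling proteins. IGFBP5, a secreted protein that binds insulin-like growth factors, was the most abundant of them. IGFBP5 (chr2:216672105-216695549, minus strand) stood at 2632, 4301 and 3281 CPM in V, 1008, 932 and 753 CPM in VM and 5363 ± 935 CPM (SD, n = 6) in 4OHT_siNT. The lowest V library was above all 3 VM libraries by over 2-fold, a difference of 1.93 ± 0.18 (SE, edgeR adjusted p = 0.000617) on the log2 scale. RGS5 (chr1:163111121-163321791, minus strand), a regulator of G protein signalling known as a pericyte marker, stood at 49.7, 32.6 and 25.3 CPM in V, 6.6, 7.18 and 4.75 CPM in VM and 51.4 ± 17.6 CPM in 4OHT_siNT. Its V values were spread from 25.3 to 49.7 CPM, and the VM values were all under 8 CPM, with a log2 fold change of 2.54 ± 0.25 (SE, edgeR adjusted p = 0.000878). Here and below the error of a fold change is its SE. FLT1 (chr13:28300346-28495145, minus strand), the VEGF receptor 1, stood at 33.6, 44.9 and 41.9 CPM in V, 12.7, 11 and 9.07 CPM in VM and 50.5 ± 10.3 CPM in 4OHT_siNT (log2 fold change 1.88 ± 0.16, edgeR adjusted p = 0.000389). The summed endothelial markers given above were also higher in V than in VM, and their part in the RGS5 and FLT1 values was not tested. CST4, a salivary-type cystatin that inhibits cysteine proteases, stood at 37.7, 37.2 and 34.5 CPM in V, 8.4, 7.34 and 9.33 CPM in VM and 26.1 ± 4.49 CPM in 4OHT_siNT. Its difference of 2.13 ± 0.14 (SE, edgeR adjusted p = 6.03e-05) had the smallest p of the comparison, and all 3 V libraries lay above the 4OHT_siNT mean. CST4 is similar in sequence to CST1, so how reads were split between them is uncertain. ITGB8, an integrin subunit that activates latent TGF-beta, stood at 28, 66.7 and 57.8 CPM in V, 14.8, 10.5 and 14 CPM in VM and 26.2 ± 3.7 CPM in 4OHT_siNT (log2 fold change 1.97 ± 0.27, edgeR adjusted p = 0.00691).

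The other 7 of the 12 largest rises were expressed at a low level, below 14 CPM in each knockdown library. SERPINA9, a serine protease inhibitor of germinal centre B cells, had the largest log2 fold change (2.72), from 0.897, 0.319 and 1.21 CPM in VM to 3.4, 7.03 and 5.32 CPM in V. LCE1F, a cornified envelope gene, stood at 5.53, 13.4 and 13.3 CPM in V and 1.55, 2.07 and 3.71 CPM in VM, and at 23.6 ± 2.04 CPM in 4OHT_siNT. The secreted WNT antagonist DKK2 rose by 2.14, the myeloid receptor TREM1 by 2.14, the unconventional myosin MYO1D by 2.04, ARHGAP25 by 1.98 and NDP, a secreted ligand of frizzled 4, by 1.82 on the log2 scale. For LCE1F, DKK2, TREM1 and MYO1D all 3 V libraries were below the 4OHT_siNT mean, and the VM libraries lay lower still. SERPINA9, DKK2 and TREM1 would not have passed the expression filter (minimum count 10) by their VM libraries alone, which favours calls higher in V.

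The genes with the largest falls in V were mostly at a low level. PLSCR4, a phospholipid scramblase, stood at 5.92, 2.7 and 2.26 CPM in V, 15.2, 13 and 10.4 CPM in VM and 1.37 ± 0.437 CPM in 4OHT_siNT (log2 fold change -1.83 ± 0.30, edgeR adjusted p = 0.0133). GPRC5A, an orphan receptor inducible by retinoic acid, stood at 12.9, 6.86 and 7.58 CPM in V, 34.6, 30.7 and 21 CPM in VM and 3.27 ± 0.505 CPM in 4OHT_siNT (log2 fold change -1.66 ± 0.25, edgeR adjusted p = 0.00875). In both genes every knockdown library was above the 4OHT_siNT mean and the V libraries were the nearer to it. Its relative GPRC5B stood at 8.85, 4.78 and 5.65 CPM in V, 19.3, 19.8 and 12.9 CPM in VM and 5.7 ± 0.799 CPM in 4OHT_siNT (log2 fold change -1.44 ± 0.24, edgeR adjusted p = 0.0145). SOD3, the extracellular superoxide dismutase, stood at 15.8, 6.75 and 9.76 CPM in V and 26.7, 30.4 and 23.5 CPM in VM (log2 fold change -1.33 ± 0.25, edgeR adjusted p = 0.0215), and DLL4, a Notch ligand, at 19.1, 6.86 and 10.2 CPM in V and 31.4, 32.8 and 22.5 CPM in VM (log2 fold change -1.27 ± 0.30, edgeR adjusted p = 0.048). In both of these 2-3V was the highest V library and 4-2VM the lowest VM library. The other falls were CPLX1, a regulator of synaptic vesicle release (-1.65), the stress-induced chromatin protein NUPR1 (-1.47), the fatty acid carrier FABP4 (-1.32), the long non-coding RNA GAPLINC (-1.30), the potassium channel subunit KCNE4 (-1.26), thymidine kinase TK1 (-1.26) and the interleukin 18 receptor chain IL18R1 (-1.25). PLSCR4 and GPRC5A were also the members called, both lower in V, among 10 tested genes that earlier results on these same libraries had picked as strong responders to knockdown, so that choice is not independent of the libraries used here. The other 8 responders were not called, and their levels included 2203, 2093 and 1682 CPM in V and 1759, 1658 and 3249 CPM in VM for the stromelysin MMP3 (log2 fold change -0.15 ± 0.23, edgeR adjusted p = 0.762) and 5.53, 6.02 and 7.9 CPM and 5.3, 5.5 and 9.68 CPM for the secreted neuropeptide precursor VGF (log2 fold change -0.07 ± 0.26, edgeR adjusted p = 0.909).

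Of these 24 genes, 23 were still called with the siRNA covariate, the exception being TK1 (adjusted p = 0.0762). Without 2-1VM, RGS5, CST4, ITGB8, IGFBP5 and FLT1 were still called and none of the falls was. Without 4-2V, RGS5, CST4, IGFBP5 and FLT1 were called, 4 of the 24.

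**Figure D3:**
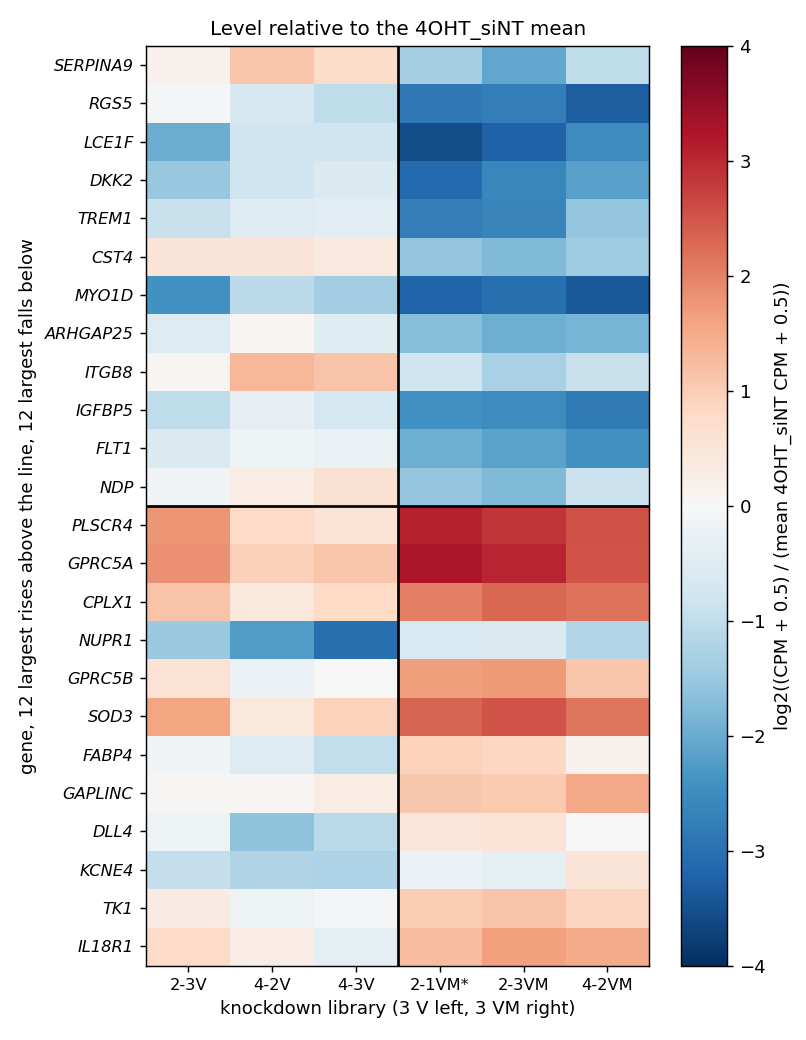
Heat map of the 12 largest rises and 12 largest falls of V against VM (rows) in the 6 knockdown libraries (columns), as the log2 ratio of CPM to the mean of the 6 4OHT_siNT libraries, each with 0.5 CPM added. Above the horizontal line the V columns are redder or paler than the VM columns, and below it they are bluer or paler. The asterisk marks the library that matched no title.

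Over the 40 gene lists described from here on, 60 of 666 tested members were called, beside 356 of 12563 over all genes. An unadjusted p under 0.05 was reached by 2277 of the 12563, the share to set beside such counts in the lists. Without 2-1VM the list members still called were CCL2, IL1B, IGFBP5, STING1, SLC7A11 and BGN, 6 in number, and without 4-2V they were the first 5 of these.

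The SASP interleukins and chemokines that passed the test were all higher in V. Of 10 interleukins and colony-stimulating factors tested, the test called 4, all higher in V. The median log2 fold change was 0.71, against 0.00 over all genes. IL1B (chr2:112829751-112836816, minus strand), the secreted interleukin 1, stood at 1471, 2021 and 1474 CPM in V, 595, 604 and 692 CPM in VM and 1015 ± 237 CPM (SD, n = 6) in 4OHT_siNT (log2 fold change 1.40 ± 0.14, edgeR adjusted p = 0.00122). All 3 V libraries lay above the 4OHT_siNT mean and all 3 VM libraries below it. IL1A, its cell-bound relative, stood at 101, 141 and 115 CPM in V and 69.3, 70.5 and 78.7 CPM in VM (log2 fold change 0.71 ± 0.13, edgeR adjusted p = 0.0198). The lowest V library lay above the highest VM library for IL1A too. CSF1, the growth factor of macrophages, stood at 17.7, 26.6 and 28.2 CPM in V and 11.1, 11.6 and 15.3 CPM in VM (log2 fold change 0.94 ± 0.19, edgeR adjusted p = 0.031). CSF3, that of granulocytes, stood at 180.2, 244 and 175 CPM in V and 72.6, 78.3 and 147 CPM in VM (log2 fold change 1.01 ± 0.24, edgeR adjusted p = 0.0496). For CSF3 the 4-2VM library, at 147 CPM, was close to the V libraries. IL6, a central SASP cytokine, stood at 216, 211 and 151 CPM in V and 97.2, 106 and 154 CPM in VM, and missed the threshold (log2 fold change 0.70 ± 0.19, edgeR adjusted p = 0.0709). Its V library 4-3V lay below VM library 4-2VM.

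Among 10 SASP chemokines tested, 4 rose in V and none fell, and the median was 0.72. CCL2 (chr17:34255274-34257208, plus strand), which attracts monocytes, stood at 60.3, 72.8 and 71.6 CPM in V, 19.2, 24.5 and 25.1 CPM in VM and 29 ± 2.67 CPM (SD, n = 6) in 4OHT_siNT (log2 fold change 1.58 ± 0.14, edgeR adjusted p = 0.000558). The V libraries were above the 4OHT_siNT mean by over 2-fold, while the VM libraries were below it. The 4OHT_siNT libraries were all VM, and CCL2 values were also higher in V than in VM in DMSO_siNT cells, as given below. CCL20, a ligand of CCR6, stood at 59.2, 77.9 and 58.8 CPM in V and 21.4, 19.1 and 34.2 CPM in VM (log2 fold change 1.39 ± 0.20, edgeR adjusted p = 0.0084). CCL2 and CCL20 were highest in V library 4-2V. CXCL3, a neutrophil chemokine, stood at 297, 259.6 and 187 CPM in V and 149.6, 137 and 98.6 CPM in VM (log2 fold change 0.96 ± 0.18, edgeR adjusted p = 0.0226). Its close relative CXCL2 stood at 147, 106 and 101 CPM in V and 69.7, 78.1 and 68.9 CPM in VM (log2 fold change 0.72 ± 0.15, edgeR adjusted p = 0.0318). Both were highest in V library 2-3V. CXCL8, the best known neutrophil chemokine of the SASP, was not called (log2 fold change 0.57 ± 0.15, edgeR adjusted p = 0.075). With the siRNA covariate, 8 of the 10 chemokines and 5 of the 10 interleukins and colony-stimulating factors were called higher. Without 2-1VM, or without 4-2V, the calls left were CCL2 and IL1B, with CCL2 at 1.46 (adjusted p = 0.00511) and IL1B at 1.35 (adjusted p = 0.0209) in the fit without 2-1VM.

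The promoters of the called chemokines and of TNFAIP3, an NF-kappaB inhibitor, are shown. These genes were called higher in V and are known NF-kappaB targets. Whether they share a regulator in these libraries was not tested. They are RefSeq sequences on GRCh38.p14 from 250 bases before to 50 bases after the gene's start, written 5′ to 3′ on the gene's strand. Capitals mark matches, on either strand, to a form of the NF-kappaB motif (GGG, any 2 bases, TTTCC) that was chosen after the values were seen. No other motif was searched. CCL2 was not in the table.
CXCL2 (chr4:74099146-74099445, minus strand): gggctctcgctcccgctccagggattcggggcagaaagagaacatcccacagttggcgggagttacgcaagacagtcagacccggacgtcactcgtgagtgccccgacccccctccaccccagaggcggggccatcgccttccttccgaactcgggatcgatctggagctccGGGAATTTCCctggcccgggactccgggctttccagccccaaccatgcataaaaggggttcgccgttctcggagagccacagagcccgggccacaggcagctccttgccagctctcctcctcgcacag
CXCL3 (chr4:74038640-74038939, minus strand): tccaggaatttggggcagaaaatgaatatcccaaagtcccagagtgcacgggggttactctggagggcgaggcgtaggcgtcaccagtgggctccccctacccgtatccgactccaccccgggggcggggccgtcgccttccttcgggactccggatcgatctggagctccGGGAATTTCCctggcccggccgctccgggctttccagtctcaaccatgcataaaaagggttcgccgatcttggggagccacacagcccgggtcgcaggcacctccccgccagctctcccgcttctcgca
CCL20 (chr2:227813592-227813891, plus strand): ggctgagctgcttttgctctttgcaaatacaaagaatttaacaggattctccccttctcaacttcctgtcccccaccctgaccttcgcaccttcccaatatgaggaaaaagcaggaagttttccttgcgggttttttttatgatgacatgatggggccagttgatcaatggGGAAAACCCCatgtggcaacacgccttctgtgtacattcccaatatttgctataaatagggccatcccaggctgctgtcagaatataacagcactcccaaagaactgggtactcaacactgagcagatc
TNFAIP3 (chr6:137867009-137867308, plus strand): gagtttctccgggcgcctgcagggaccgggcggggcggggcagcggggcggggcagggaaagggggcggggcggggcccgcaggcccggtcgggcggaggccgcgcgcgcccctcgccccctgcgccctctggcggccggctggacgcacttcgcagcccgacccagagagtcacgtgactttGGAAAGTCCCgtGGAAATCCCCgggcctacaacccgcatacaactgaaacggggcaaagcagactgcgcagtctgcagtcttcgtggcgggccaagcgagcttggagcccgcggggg
The match began 78 bases before the start in CXCL2 and 79 bases before it in CXCL3 and in CCL20, where it lies on the opposite strand. TNFAIP3 held 2 matches. Of all 35116 promoters in the table, 671 (1.91%) held the motif. It was present in 6 of 9 chemokine genes with a promoter in the table, 3 of them called, and in 8 of 14 NF-kappaB genes, of which TNFAIP3 alone was called higher. Of the 7 interleukin and colony-stimulating factor genes with a promoter, IL6 held it, which was not called, and the called genes IL1A and IL1B did not. Over the 3 lists, 15 of 30 genes with a promoter held the motif, and 4 of these 15 were called higher. In all, 6 of the 30 were called higher, the others being IL1A and IL1B. A gene was counted if any of its promoters matched, while the 1.91% is a share of promoters. The lists were also chosen to hold NF-kappaB genes and SASP factors. Their share beside 1.91% therefore says nothing about V against VM. A match is a description of the sequence, not a site.

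Among 16 SASP proteases and inhibitors 4 rose and none fell, and the median was 0.02. TIMP1, an inhibitor of metalloproteinases, stood at 5424, 5256 and 6990.3 CPM in V and 3016, 3533 and 3139.6 CPM in VM (log2 fold change 0.87 ± 0.15, edgeR adjusted p = 0.0142). PLAT, the tissue plasminogen activator, stood at 2305, 2461 and 2124 CPM in V and 1502, 1512 and 1071 CPM in VM (log2 fold change 0.76 ± 0.15, edgeR adjusted p = 0.0218). The gelatinase MMP9 was near the detection limit, at 1.66, 1.63 and 0.968 CPM in V and 0.0815, 0.319 and 0.346 CPM in VM (2.49 on the log2 scale). Of 16 growth factor ligands, 2 were called higher, PDGFB at 1.9, 3.15 and 1.77 CPM in V and 0.652, 0.638 and 0.259 CPM in VM (2.13) and FGF7, a fibroblast factor for epithelium, at 9.16, 9.28 and 10.2 CPM and 5.62, 3.91 and 5.62 CPM (0.92). Of 10 genes of the IGF axis, IGFBP5 and IGFBP7 were called higher, the latter at 379, 275 and 238 CPM in V and 164, 179.9 and 168 CPM in VM (log2 fold change 0.81 ± 0.16, edgeR adjusted p = 0.0255). MMP9 and PDGFB passed the expression filter (minimum count 10) through their V libraries alone, which favours calls higher in V. Without 2-1VM the only member of these 3 lists still called was IGFBP5.

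In signalling upstream of the SASP, TNFAIP3 stood at 58.3, 88.8 and 74.1 CPM in V and 36.9, 33.8 and 42.6 CPM in VM (log2 fold change 0.97 ± 0.16, edgeR adjusted p = 0.0133). TNFAIP8, an apoptosis regulator induced by TNF, was called lower (log2 fold change -0.71 ± 0.14, edgeR adjusted p = 0.0261), and the other 14 of 16 NF-kappaB genes were not called, with a median of 0.03 over the list. STING1 (chr5:139475533-139482935, minus strand), the adaptor that signals from cytosolic DNA through cGAMP, was the member called of 8 tested genes of nucleic acid sensing. It stood at 25.7, 31.3 and 25.3 CPM in V, 10.2, 12.8 and 10.8 CPM in VM and 31.7 ± 9.54 CPM (SD, n = 6) in 4OHT_siNT (log2 fold change 1.29 ± 0.15, edgeR adjusted p = 0.00215). V and VM values were well apart, and STING1 was still called without 2-1VM (1.22, adjusted p = 0.0255). Of 25 interferon-stimulated genes, IFITM1 (log2 fold change 1.29 ± 0.28, edgeR adjusted p = 0.0357) and IFI6 (log2 fold change 0.93 ± 0.20, edgeR adjusted p = 0.0364) were called higher and none lower, and the list's median was 0.21. IFITM1 has close relatives, so its reads are uncertain. Immediate early genes EGR1, at 333, 339.9 and 351 CPM in V and 170.0, 232 and 186 CPM in VM (log2 fold change 0.80 ± 0.13, edgeR adjusted p = 0.0133), and EGR2 (log2 fold change 1.26 ± 0.26, edgeR adjusted p = 0.0318) were the 2 of 23 called in their list. DUSP6, a phosphatase that restrains ERK, stood at 421, 506 and 519.9 CPM in V and 292, 283 and 345 CPM in VM (log2 fold change 0.66 ± 0.13, edgeR adjusted p = 0.0238). It was called with the ETS factor ETV4 (log2 fold change 0.57 ± 0.13, edgeR adjusted p = 0.0393) among 16 genes of MAPK feedback.

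Among 12 ligands of NK cell receptors tested, 2 were called higher and 1 lower. ULBP1, a ligand of the activating receptor NKG2D, stood at 15.5, 25.4 and 21.1 CPM in V and 9.05, 10.7 and 8.38 CPM in VM (log2 fold change 1.15 ± 0.19, edgeR adjusted p = 0.0133). ICAM1, the adhesion molecule bound by LFA-1, stood at 677, 1111 and 847 CPM and 457, 455 and 484 CPM (log2 fold change 0.92 ± 0.16, edgeR adjusted p = 0.016). MICB, another NKG2D ligand, went the other way, at 11.8, 11.4 and 10.7 CPM in V and 15.9, 17.6 and 17.4 CPM in VM (log2 fold change -0.58 ± 0.13, edgeR adjusted p = 0.0461). The list thus held members that moved in opposite directions, and its median was 0.19. Its calls were lost without 2-1VM and without 4-2V. None of 15 HLA class I presentation genes was called by edgeR, 2 had an unadjusted p under 0.05 and DESeq2 called 1.

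The cholesterol synthesis genes that passed the test were all lower in V. Of 31 genes of cholesterol and fatty acid synthesis, 7 fell in V and none rose, and the median was -0.37 with 4 values above 0. HMGCS1, which makes the HMG-CoA that enters the mevalonate pathway, stood at 52.4, 42.3 and 53.1 CPM in V, 86.7, 78.6 and 84.8 CPM in VM and 50.2 ± 3.64 CPM (SD, n = 6) in 4OHT_siNT (log2 fold change -0.75 ± 0.13, edgeR adjusted p = 0.0142). MVD, the mevalonate decarboxylase, stood at 68.8, 43.6 and 36 CPM in V and 84.7, 95.4 and 96.4 CPM in VM (log2 fold change -0.89 ± 0.20, edgeR adjusted p = 0.0401). INSIG1, which holds the SREBP activator in the endoplasmic reticulum, stood at 93.8, 59.6 and 85.1 CPM and 128, 131 and 181 CPM (log2 fold change -0.88 ± 0.19, edgeR adjusted p = 0.0343). In HMGCS1 and INSIG1 all 3 VM libraries were above the 4OHT_siNT mean. IDI1, the isomerase that follows MVD, stood at 146, 101 and 133 CPM in V and 198, 195 and 189.7 CPM in VM (log2 fold change -0.61 ± 0.14, edgeR adjusted p = 0.0454). DHCR7, which makes cholesterol from its last precursor, was also called (-0.55) and is named after its values were seen. With the siRNA covariate 5 members were called lower, and without 2-1VM or without 4-2V none was, with list medians of -0.40 and -0.34. DESeq2 called 11 lower.

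Some antioxidant and stress genes fell in V as well. SLC7A11 (chr4:138164097-138242349, minus strand), the cystine importer that feeds glutathione synthesis, stood at 91.1, 81.1 and 93.1 CPM in V, 179, 159 and 197 CPM in VM and 60.5 ± 11.4 CPM (SD, n = 6) in 4OHT_siNT (log2 fold change -1.01 ± 0.12, edgeR adjusted p = 0.00311). All 6 knockdown libraries were above the 4OHT_siNT mean and V was the nearer to it. Without 2-1VM it still fell (-1.01, adjusted p = 0.0291), as did, of all falls, the adenylate kinase AK5 alone (log2 fold change -1.12 ± 0.15, edgeR adjusted p = 0.00652 with all libraries), which is named after its values were seen. SLC7A11 is on 2 of the lists. Of 18 NRF2 targets, 3 were called lower (SLC7A11, the heme oxygenase HMOX1 at -0.62 and the aldo-keto reductase AKR1B10 at -1.24), with a median of -0.34 and 4 values above 0. Of 27 genes of the integrated stress response, SLC7A11 and NUPR1 were called lower and none higher. HSPA1A, an inducible heat shock chaperone with a near-identical copy that makes its reads uncertain, stood at 13.6, 6.86 and 8.63 CPM in V and 19.5, 23.6 and 22.3 CPM in VM (log2 fold change -1.18 ± 0.22, edgeR adjusted p = 0.0215) and was the 1 of 19 heat shock genes called. None of 21 unfolded protein response genes was called by edgeR, with 5 at an unadjusted p under 0.05 and 1 called by DESeq2. For 5 metallothioneins these counts were 0, 0 and 0.

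Genes of glycolysis and hypoxia were called higher in 4 of 28 cases and lower in none. The median was 0.28, with 24 values above 0. Lactate dehydrogenase LDHA stood at 801, 841 and 809 CPM in V, 560.4, 570.4 and 603 CPM in VM and 659 ± 55.6 CPM (SD, n = 6) in 4OHT_siNT (log2 fold change 0.50 ± 0.11, edgeR adjusted p = 0.0324). BNIP3, a hypoxia-induced mitophagy receptor, stood at 159.8, 163 and 163 CPM in V and 109, 113 and 126 CPM in VM (log2 fold change 0.49 ± 0.11, edgeR adjusted p = 0.0382). ENO2 (log2 fold change 0.57 ± 0.13, edgeR adjusted p = 0.0461) and ALDOA (log2 fold change 0.72 ± 0.16, edgeR adjusted p = 0.0358) were the others, and ALDOA was counted at only 11.3 to 21.8 CPM, a low level for this enzyme, so its value is uncertain. The V libraries were close together in LDHA and BNIP3, while ENO2 was highest in 4-2V, and the change was under 1.5-fold for LDHA, BNIP3 and ENO2. Without 2-1VM none of the 28 was called.

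Among matrix and fibroblast identity genes few were called, 1 of 23 matrix genes, 1 of 19 collagens and 2 of 10 fibroblast markers, all higher in V, beside 1.93% of all genes. BGN, a small proteoglycan of the matrix, stood at 60.3, 102 and 108 CPM in V, 26.7, 27.6 and 32.6 CPM in VM and 187 ± 21.9 CPM (SD, n = 6) in 4OHT_siNT (log2 fold change 1.64 ± 0.20, edgeR adjusted p = 0.00311). It was the matrix gene called, and was still called without 2-1VM (adjusted p = 0.032) but not without 4-2V. COL10A1, a network-forming collagen, was the collagen called (5.61, 10.5 and 7.58 CPM in V, 3.75, 2.95 and 2.07 CPM in VM, log2 fold change 1.44 ± 0.27, edgeR adjusted p = 0.0215). The surface glycoprotein THY1 stood at 216, 252 and 255 CPM in V, 134, 151 and 120.4 CPM in VM and 412 ± 70.9 CPM in 4OHT_siNT (log2 fold change 0.84 ± 0.12, edgeR adjusted p = 0.0084), and the PDGF receptor PDGFRB at 61, 77.2 and 72.8 CPM, 42.1, 45.1 and 33.9 CPM and 132 ± 14.6 CPM (log2 fold change 0.81 ± 0.14, edgeR adjusted p = 0.016). For BGN, COL10A1, THY1 and PDGFRB every knockdown library was below the 4OHT_siNT mean and VM was the lower of the knockdown groups. None of 18 contractile genes was called by edgeR, with 3 at an unadjusted p under 0.05 and 0 called by DESeq2.

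Notch, WNT and lysosome genes held calls in both directions. DKK2 was the 1 of 22 Notch and WNT genes called higher, and DLL4, the Notch target HES4 (log2 fold change -0.86 ± 0.20, edgeR adjusted p = 0.0423) and the WNT ligand WNT16 (log2 fold change -0.78 ± 0.15, edgeR adjusted p = 0.0215) were called lower. HES4 stood at 35.5, 20.5 and 21.1 CPM in V and 44, 50.2 and 46.5 CPM in VM, and WNT16 at 14.5, 11.6 and 11.4 CPM and 21.4, 19.6 and 23.6 CPM. Of 31 lysosome genes, 1 rose and 3 fell in V, and the median was -0.23. CTSS, a cathepsin also used in antigen presentation, stood at 65.6, 75 and 60.9 CPM in V and 39, 37.2 and 44.7 CPM in VM (log2 fold change 0.74 ± 0.13, edgeR adjusted p = 0.0146). CTSL, the cathepsin of most cell types, stood at 299.8, 225 and 163 CPM in V and 422, 418 and 465 CPM in VM (log2 fold change -0.92 ± 0.18, edgeR adjusted p = 0.0266). The proton pump subunit ATP6V0D2 (log2 fold change -1.18 ± 0.22, edgeR adjusted p = 0.02) and the sialidase NEU1 (log2 fold change -0.62 ± 0.13, edgeR adjusted p = 0.0335) were the other falls. The cathepsins S and L thus moved in opposite directions.

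Of 28 mitosis genes tested, TTK, the spindle checkpoint kinase, and MYBL2, a factor of G2/M transcription, were called lower, and both were under 2 CPM in each knockdown library. Both passed the expression filter (minimum count 10) through their VM libraries alone, which favours calls in this direction. TTK stood at 0.316, 0.169 and 0.0807 CPM in V and 0.815, 1.04 and 1.04 CPM in VM (-2.30), and MYBL2 at 0.711, 0.394 and 0.323 CPM and 1.71, 1.44 and 1.9 CPM (-1.82). The list's median was -0.55, with 2 of 28 values above 0, and over the alternatives it ranged from -0.64 to -0.20. It includes members kept through their VM libraries alone, which favours values below 0. Summed over all 32 listed genes, tested or not, the level was 129 to 135 CPM in V and 150 to 167 in VM. In 4OHT_siNT this sum was 126 to 147 CPM. With the siRNA covariate no mitosis gene was called. None of 30 DNA replication genes, 7 cyclin-dependent kinase inhibitor genes and 20 p53 targets was called by edgeR, with 2, 1 and 3 at an unadjusted p under 0.05 and 1, 0 and 1 called by DESeq2. CDKN1A, the p53-induced inhibitor p21, stood at 1666, 1799.7 and 1889 CPM in V and 1578, 1671 and 1877 CPM in VM (log2 fold change 0.07 ± 0.12, edgeR adjusted p = 0.807).

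Cytosolic ribosomal protein genes had a median of -0.22 with 1 of 50 values above 0, and none was called by edgeR or DESeq2, with 5 at an unadjusted p under 0.05. The median was 0.04 within siRNA 2 and -0.41 within siRNA 4, so the sign of the list differed between the siRNAs. Of 38 respiratory chain subunits, 11 complement genes and 10 replication-dependent histone genes none was called by edgeR, with 5, 2 and 2 at an unadjusted p under 0.05 and 0, 1 and 1 called by DESeq2.

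**Figure D4:**
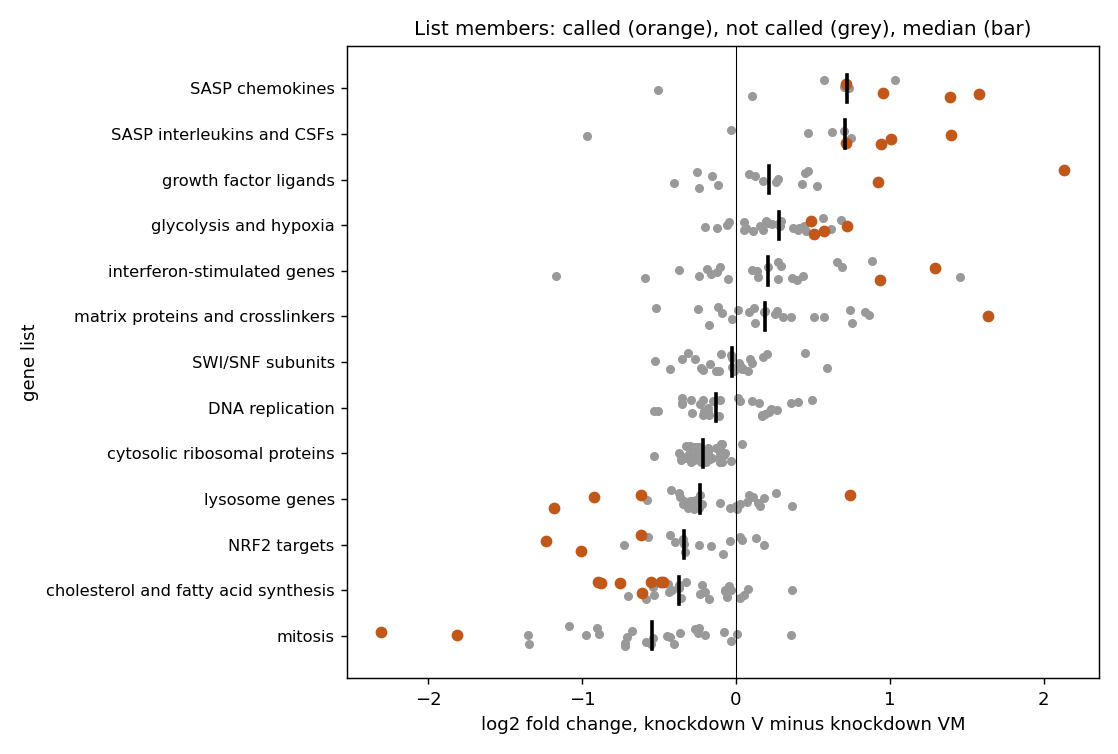
Log2 fold change of V over VM in the knockdown libraries (horizontal axis) for each tested member of 13 gene lists (vertical axis). Orange points are genes called at an adjusted p under 0.05 and grey points were not called. Vertical bars are list medians, which run from -0.55 for mitosis to 0.72 for SASP chemokines. The mitosis list includes members that passed the expression filter through VM libraries alone.

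The same set letters were compared in DMSO_siNT cells, in which RAS was not induced and which share no library with the knockdown comparison. This asks whether V and VM differ in cells with neither RAS induction nor siRNA against SMARCA4. Between DMSO_siNT and knockdown cells these 2 conditions change together. They cannot be told apart here or in the interaction below. SMARCA4 showed a log2 fold change of -0.14 there (adjusted p = 0.857). No gene of 12944 was called by edgeR (0%), with 617 at an unadjusted p under 0.05, and DESeq2 called 41. The common biological coefficient of variation was 33.5% in DMSO_siNT and 13.4% in the knockdown libraries, so the DMSO_siNT comparison could detect less, and without the library 4-2V, which stood apart, no gene was called either, with 1373 at an unadjusted p under 0.05. Across 12213 genes tested in both, the 2 sets of differences had a Pearson r of -0.05 and a Spearman rho of -0.06, and 0.16 and 0.24 without DMSO_siNT 4-2V, given as a description over genes, which are not independent. Of 315 genes called in the knockdown comparison with a DMSO_siNT value, 145 had the same sign in DMSO_siNT, and 169 without 4-2V. The median DMSO_siNT difference of the genes higher in V in knockdown cells was -0.05, and that of the genes lower in V was 0.10. Without 4-2V these medians changed sign, to 0.025 and -0.020, beside -0.016 over all genes. Values of 2 genes called in knockdown cells, chosen after their values were seen, were higher in V in DMSO_siNT cells too. CCL2 stood at 41.4, 29.2 and 72.6 CPM in the DMSO_siNT V libraries 2-1V, 2-2V and 4-2V and at 20.3, 19.9 and 23.8 CPM in the VM libraries (log2 fold change 1.18 ± 0.36, edgeR adjusted p = 0.834). ICAM1 stood at 43.4, 30.3 and 27.3 CPM in V and 9.81, 15.9 and 11.4 CPM in VM (log2 fold change 1.45 ± 0.27, edgeR adjusted p = 0.834), beside 0.92 in knockdown cells. Neither was called in DMSO_siNT. Without DMSO_siNT 4-2V the log2 fold change was 0.72 ± 0.18 for CCL2 (edgeR adjusted p = 0.264) and 1.57 ± 0.23 for ICAM1 (edgeR adjusted p = 0.231).

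**Figure D5:**
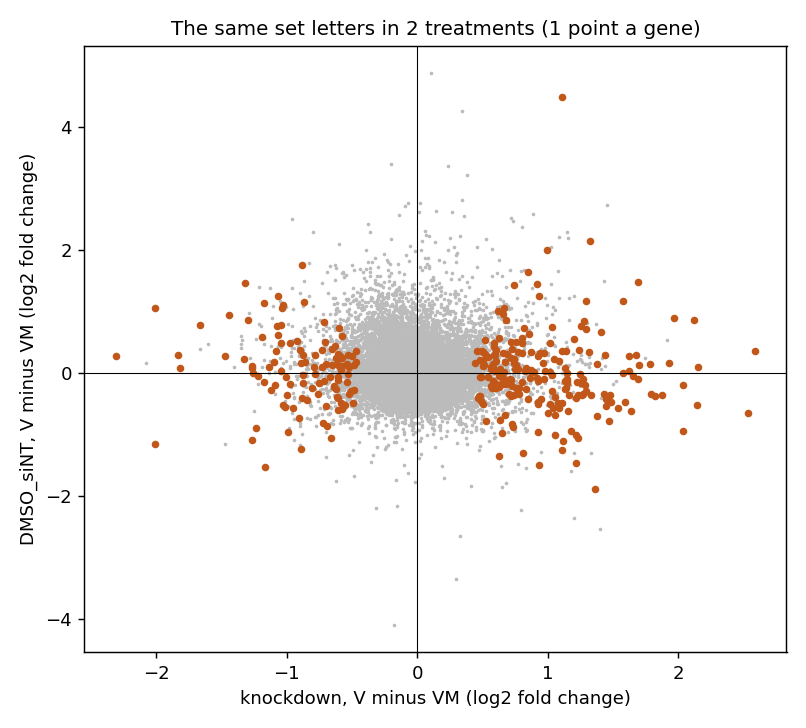
Log2 fold change of V over VM in the knockdown libraries (horizontal axis) against the same in the DMSO_siNT libraries (vertical axis), 1 point a gene. Orange points are genes called in the knockdown comparison, which lie on both sides of 0 on the vertical axis (145 of 315 with the same sign).

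Whether the V and VM difference itself differed between knockdown and DMSO_siNT cells was tested as an interaction. edgeR called none of 13386 genes (0%), with 1065 at an unadjusted p under 0.05, and DESeq2 called 137. Without DMSO_siNT 4-2V, 69 of 13578 genes were called (0.508%), 39 with a higher difference in knockdown cells (0.287%) and 30 with a lower one (0.221%). Leaving out the set 1 libraries of both arms as well gave no call by edgeR, with 692 at an unadjusted p under 0.05. Of the 69 genes, 45 were also called, in the same direction, in knockdown V against VM. Without 4-2V the DMSO_siNT V libraries were 2-1V and 2-2V, both of siRNA 2, and the VM libraries were 2-2VM, 4-2VM and 4-3VM. Letter and siRNA number were thus partly confounded in that fit, and with the siRNA covariate it called 40 genes. In the fit without DMSO_siNT 4-2V, to which the naming rule was applied because the full fit made no call, RGS5 had a difference of 3.17 ± 0.48 (SE, edgeR adjusted p = 0.0161). RGS5 stood at 22.4 and 30.3 CPM in the DMSO_siNT V libraries 2-1V and 2-2V, at 62.3, 26.9 and 30.6 CPM in the VM libraries and at 23.7 CPM in 4-2V. Among calls with a mean log2 CPM above 1, MYO1D (3.68), A2M, the protease-trapping macroglobulin (3.70), and PLEK2, a cytoskeletal pleckstrin (2.97), were the other largest in this direction. A2M and PLEK2 were not called in knockdown V against VM, and their DMSO_siNT differences without 4-2V were -2.28 and -2.16. A2M stood at 0.160 to 1.80 CPM in the knockdown libraries. SEMA7A, a membrane-anchored semaphorin singled out after its values were seen, stood at 172, 297 and 218 CPM in knockdown V and 79.3, 84.5 and 105 CPM in knockdown VM, and at 51.9 and 82.9 CPM in DMSO_siNT V and 236, 148 and 178 CPM in DMSO_siNT VM. It was thus higher in V in knockdown cells and lower in V in DMSO_siNT cells, with an interaction of 2.87 ± 0.35 (SE, edgeR adjusted p = 0.00473). In the other direction the largest with a mean log2 CPM above 1 were TTK (-2.81), GPRC5A (-2.65), the spindle orientation gene SAPCD2 (-2.41) and GPRC5B (-2.31). SAPCD2 was not called in knockdown V against VM and stood at 0.161 to 0.957 CPM in the knockdown libraries. GPRC5A stood at 65.4 and 52.8 CPM in the DMSO_siNT V libraries 2-1V and 2-2V, 33.4 CPM in 4-2V and 25.3, 36 and 26.7 CPM in the VM libraries, so its values in DMSO_siNT cells were above those of every knockdown V library.

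Over 16 alternative settings, 12 genes were called in 15, every setting but the one that placed 2-1VM with V. They were CST4, CST1, FLT1, CCL2, IGFBP5, RGS5, STING1, QPCT, MIR31HG, MEDAG, DIO2 and IQGAP2, all higher in V, and those outside the naming rule are given after their values were seen. DIO2, the deiodinase that activates thyroid hormone, stood at 13, 17.7 and 13.9 CPM in V and 5.3, 5.74 and 4.41 CPM in VM (log2 fold change 1.53 ± 0.18, edgeR adjusted p = 0.00267). QPCT, a glutaminyl cyclase that modifies secreted chemokines, stood at 54.3, 56.8 and 58.1 CPM in V and 27.4, 25 and 24.5 CPM in VM (log2 fold change 1.14 ± 0.11, edgeR adjusted p = 0.000878), and IQGAP2, a scaffold of the cytoskeleton, at 13.8, 11.8 and 15.9 CPM and 4.89, 4.63 and 3.28 CPM (log2 fold change 1.69 ± 0.20, edgeR adjusted p = 0.00283). MEDAG, a gene of adipocyte differentiation, stood at 23.7, 29.2 and 21.1 CPM and 7.09, 6.3 and 9.68 CPM (log2 fold change 1.69 ± 0.19, edgeR adjusted p = 0.00185), and the long non-coding RNA MIR31HG at 38, 44.7 and 45.2 CPM and 19.5, 20.2 and 19.95 CPM (log2 fold change 1.11 ± 0.12, edgeR adjusted p = 0.00185). IL1B and SLC7A11 were called in 14 settings, and the fewest for any of the 356 genes was 3.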

How the data were processed

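Polyadenylated RNA was sequenced from directional libraries. The labels list 29 samples, and counts were available for 18 libraries. The submitters' processing notes name STAR 2.7.8a, DESeq2 1.36.0 and the build hg38, while the counting program is not given in the sources used here. The file deposited by the authors holds whole-number counts for 28266 gene symbols, without normalization, in 1 column for each library and lane, and lanes were summed. Lanes of a library differed by a chi-square per degree of freedom of 1.19 to 1.27 and the 27 pairs of libraries within a group by 2.33 to 286, so each library was counted once.

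V and VM were compared with edgeR 4.0.16 in R 4.3.3 on the 6 knockdown libraries alone (filterByExpr, minimum count 10, TMM, quasi-likelihood test, no covariate), with Benjamini-Hochberg adjustment over all 12563 genes tested, which held 99.9% of the counts. Calls are genes whose adjusted p was below 0.05. Standard errors were derived from the F statistic. DMSO_siNT and the interaction were fitted in the same way. A difference within a siRNA is that of mean log2 CPM with a prior count of 2. In simulated knockdown data with 200 changed genes among 12448 tested, edgeR recovered 89% of 2-fold and 100% of 4-fold changes, with 4.55% of its calls false. In simulated DMSO_siNT data it recovered 4% and 72% (2.56% false), and for the interaction 6% and 63% (9.21% false). DESeq2 1.42.0 was the alternative test, and 5.5% of its simulated calls were false in knockdown data, 24.2% in DMSO_siNT and 31.0% for the interaction. The simulated counts had the same dispersion in V and VM, no difference between siRNAs and no misplaced library. These false shares are therefore not error rates of the calls in the real libraries.

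Genes named are SMARCA4, the 12 largest rises and 12 largest falls (called, no overlap of V and VM, mean log2 CPM over 1), up to 4 called members a direction from each of 40 lists (any member for the SWI/SNF and responder lists), and the 4 largest a direction among interaction calls with a mean log2 CPM over 1. Some called list members are not reported here by name. Members and lists were chosen with earlier results of these data known. The lists for mitochondrially encoded genes and leukocyte markers had no tested member. Positions are from GENCODE v44 on GRCh38. Alternatives covered scaling, test, filter, siRNA covariate, blocks by set, the libraries fitted, the threshold and leaving out each library, and 3 added after seeing the data combined the siRNA covariate or the set 1 libraries with leaving out 2-1VM or DMSO_siNT 4-2V.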

Additional observations from a re-analysis of the deposited data

Results flagged for a closer look

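Levels in the 6 4OHT_siNT libraries were screened for a library far from the others with Dixon's ratio, the gap of the highest or lowest library to its neighbour divided by the range of log2 CPM. The ratio passed Dixon's 95% critical value for 6 of 109 named genes, and chance passes about 1 in 20. GPRC5A was lowest in 4OHT_siNT 2-1VM (ratio 0.766) and DKK2 in 4OHT_siNT 4-2VM (0.632). CXCL3 (0.648), PLAT (0.778) and BGN (0.644) were highest in 4-2VM, and HSPA1A was highest in 4-3VM (0.730). The library 4-2VM thus appears 4 times among these 6 genes. These libraries did not enter the V against VM tests.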

How the results depend on the processing

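The 356 calls became 651 under DESeq2, 1209 with all genes of at least 1 count, 101 with all 18 libraries in 1 fit, 163 over 2-fold, 22 with 2-1VM left out, 0 with it placed with V and 191 with the siRNA covariate and 2-1VM left out. The 60 called list genes became 104 under DESeq2, 156 with all genes of at least 1 count, 18 with all libraries, 6 with 2-1VM left out and 0 with it placed with V. Of the 24 largest changes, the number called was 15 with all libraries, 5 with 2-1VM left out and 0 with it placed with V. Leaving out each library gave 17 to 1710 calls, 5 to 184 list genes and 4 to 24 of the 24 largest genes. SMARCA4 was past the threshold under DESeq2 (0.59), with all genes of at least 1 count (0.61) and in matched pairs (0.76), and ranged from 0.45 to 0.75 when each library was left out.

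Set numbers were tried as a replicate block. With the set number as block 30 genes were called, 7 list genes and 9 of the 24 largest, and with the 2 pairs matched on siRNA and set number 664 genes and 122 list genes. Only 2 such pairs existed in knockdown cells. Their deviations from the group means correlated at 0.19 and 0.02, beside -0.12 for a pair of the same set number and different siRNAs. In DMSO_siNT the matched pairs stood at 0.34 and -0.24, and those of different siRNAs at -0.37 and 0.20. So few pairs cannot decide whether the libraries were paired, and the main test used no pairing.

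For V against VM in DMSO_siNT, the 0 calls became 41 under DESeq2 and 78 with all 18 libraries, and 0 to 0 without each library. For the interaction, the 0 calls became 137 under DESeq2, 10 with all genes of at least 1 count, 66 with all 18 libraries and 40 with the siRNA covariate and without DMSO_siNT 4-2V, and 0 to 69 when each library was left out. The causes of these shifts were not tested.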
